A study of Drosophila melanogaster with 30 samples.

Results

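The comparison described here set blood cells (hemocytes) floating in the larval circulation against those of the lymph gland, the larval blood-forming organ, in *Drosophila melanogaster* at 120 h after egg laying (AEL). Its members were the 3 Drop-seq libraries of the normal circulation and the 4 of the normal lymph gland at that age, 7 of the 30 libraries of the series. All were from the Oregon-R strain at steady state, and no larva had been infested by wasps. Drop-seq captures polyadenylated RNA of single cells on barcoded beads and counts each molecule through a unique molecular identifier (UMI). Barcodes were kept if they held 400 to 5000 genes and if mitochondrial UMIs made up no more than 20% (circulation) or 10% (lymph gland) of their total. This left 13242 of 13534 barcodes, 1758 from the circulation and 11484 from the lymph gland. Each lymph gland library pooled the primary lobes of many larvae, freed from the posterior lobes, the dorsal vessel and the ring gland and dissociated with enzymes. How the circulating cells were prepared for sequencing is not given in the sources used here, so the tissue and the preparation cannot be told apart.

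*Drosophila* hemocytes fall into 3 main kinds. Plasmatocytes engulf microbes and dying cells and lay down much of the basement membrane, crystal cells carry the prophenoloxidases used for melanization, and lamellocytes wrap parasitoid eggs. In the lymph gland these cells arise from prohemocytes of the medullary zone, which are kept undifferentiated by signals that include those of the posterior signaling center (PSC), and they disperse at the onset of metamorphosis. The circulating cells of the larva descend mainly from a separate embryonic wave and multiply as mature cells.

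The circulation libraries held 507 to 684 kept cells and 4109834 to 4848757 UMIs each, and the lymph gland libraries 2002 to 4448 cells and 13898044 to 38244591 UMIs. The median cell had 4951 to 7020 UMIs in the circulation and 4628 to 9878 in the lymph gland, so the lymph gland totals are the more precise of the pair. Mitochondrial UMIs were 5.15 to 6.45% of circulation totals and 2.61 to 3.80% of lymph gland totals. Circulation library 3 stood apart: its median Spearman correlation was 0.898 with the other circulation libraries of 120 h but 0.960 with those of 96 h, whereas libraries 1 and 2 stood at 0.934 and 0.927 with their own age. Library 3 of the 96 h circulation, used below, stood the other way round, with correlations of 0.876 and 0.827 to the other 96 h libraries and 0.879 and 0.935 to libraries 1 and 2 of 120 h. Results that rest on either are given with and without it. Circulation library 1 shared 38 barcodes with library 3 of the 96 h circulation, and for 34 of them the most similar profile was that of the same barcode. Leaving those barcodes out, a choice made after seeing the data, changed the count of called genes from 3712 to 3707. No doublet caller was run. The study describes its normal lymph gland libraries as separately prepared samples, and for the circulation the sources used here do not say, so the p-values below measure a spread between libraries that may be technical there. The libraries' UMIs were summed over cells, and in such sums fewer cells of a type and less RNA per cell cannot be told apart.

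The first comparison asked which kinds of cell each tissue held. Cells were called PM-marker (plasmatocyte), PH-marker (prohemocyte) or CC-marker (crystal cell) from 3 or more UMIs of the markers of that kind. The gate genes were *Hml*, *Pxn*, *NimC1* and *eater* (PM), *Tep4*, *Ance*, *dome* and *shg* (PH) and *PPO1*, *PPO2* and *lz* (CC). A CC-marker cell also had more CC than PM marker UMIs. Other cells went to PM if the PM sum exceeded the PH sum, and otherwise to PH. For the shares each cell was first thinned to 2000 UMIs, and later comparisons set the classes on unthinned cells. PM-marker cells made up 92.7, 85.4 and 87.8% of circulation libraries 1, 2 and 3, and 26.4, 36.5, 39.2 and 55.0% of lymph gland libraries 1 to 4. PH-marker cells made up 2.65, 2.46 and 0% of the circulation libraries and 58.2, 45.1, 47.8 and 40.9% of the lymph gland libraries. Most circulating cells were therefore plasmatocyte-marked, and in the lymph gland the PH-marker class was the larger in libraries 1 to 3 and the PM-marker class in library 4. CC-marker cells made up 2.81, 4.93 and 8.37% of circulation cells and 1.93, 1.38, 0.692 and 1.60% of lymph gland cells. In none of the 3 classes did the tissues overlap. The means were 88.6% ± 3.69 (SD, n = 3) against 39.3% ± 11.9 (n = 4) for PM-marker cells, 1.71% ± 1.48 against 48.0% ± 7.41 for PH-marker cells and 5.37% ± 2.81 against 1.40% ± 0.525 for CC-marker cells, each with p = 0.0571 in a two-sided exact permutation test, the smallest that 3 against 4 libraries can give, and 0.0571 after adjustment over the 3 classes. Without thinning the means were 88.2 against 45.5%, 2.30 against 51.0% and 5.45 against 1.66%.

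**Figure D1:**
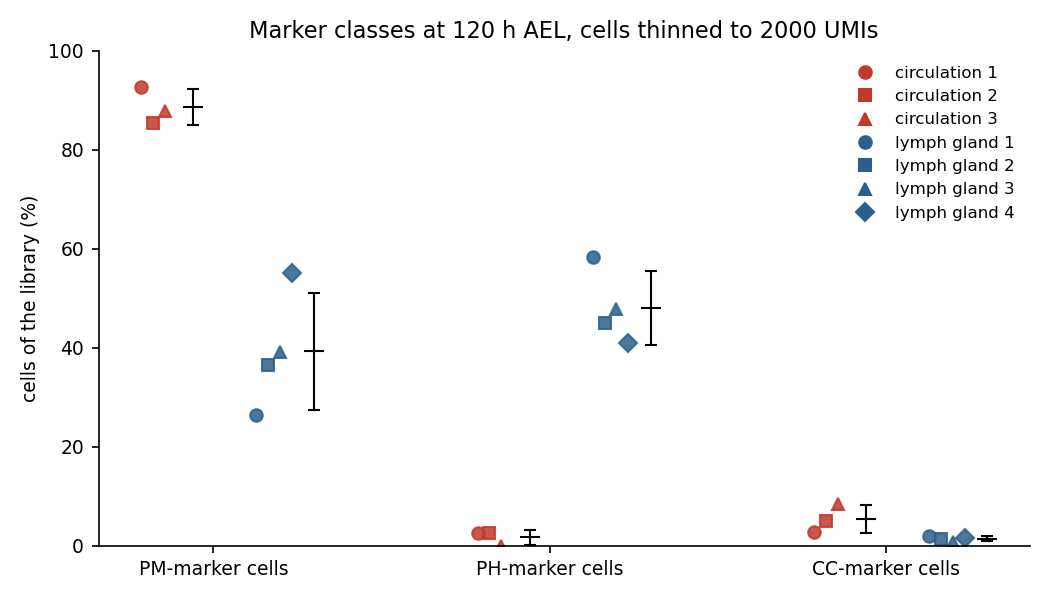
Share of the cells of each library, in percent on the vertical axis, that passed the plasmatocyte (PM), prohemocyte (PH) or crystal cell (CC) marker gate after thinning to 2000 UMIs. Each symbol is a library, and black marks are the mean ± SD of the 3 circulation or 4 lymph gland libraries, which do not overlap in any class (PM-marker 85.4 to 92.7% against 26.4 to 55.0%).

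Single markers were then compared in the summed libraries. *Hml*, *NimC1*, *eater*, *Ance*, *Tep4* and *dome* are gate genes, so their levels are no independent check of the classes. *Hml*, encoding the clotting factor Hemolectin of mature plasmatocytes, had 3282, 2382 and 4171 CPM in circulation libraries 1, 2 and 3 and 321, 509.5, 553 and 1684 CPM in lymph gland libraries 1 to 4, where CPM is UMIs per 1000000 of the library size scaled by edgeR's TMM factors. Every circulation library was above every lymph gland library, of which library 4 was the highest, and the difference was log2 difference 2.10 ± 0.53 (SE), FDR = 0.014, with the false discovery rate (FDR) being edgeR's quasi-likelihood p adjusted over all genes by Benjamini-Hochberg and called under 0.05. Without lymph gland library 4 the *Hml* difference was log2 2.83. *NimC1*, a phagocytosis receptor, had 569, 492 and 604 CPM in circulation libraries 1, 2 and 3 and 224, 234, 228 and 225 CPM in lymph gland libraries 1 to 4 (log2 difference 1.29 ± 0.12 (SE), FDR = 0.000482). On the prohemocyte side, *Ance*, an angiotensin-converting enzyme homolog, had 385, 319 and 213 CPM in circulation libraries 1, 2 and 3 and 7279.5, 6323, 6224 and 4012 CPM in lymph gland libraries 1 to 4. Its lymph gland levels were all more than 10 times the circulation levels, log2 difference -4.28 ± 0.30 (SE), FDR = 0.000342. The thioester protein gene *Tep4*, the standard medullary zone marker, had 121, 121 and 86.5 CPM in circulation libraries 1, 2 and 3 and 1083, 1037, 1092 and 1314 CPM in lymph gland libraries 1 to 4 (log2 difference -3.37 ± 0.18 (SE), FDR = 0.000151). Of the 10 plasmatocyte markers tested, 7 were called higher in the circulation and 0 lower, where 23.0% of all tested genes were called higher and 22.4% lower. Their median log2 difference was 1.61 against 0.02 over all genes. The other 3 were *eater*, *crq* and *vir-1*, at log2 0.35, -0.04 and -0.84. Of 11 prohemocyte markers 7 were lower and 2 higher (median -2.69). The higher were *dome*, the JAK/STAT receptor, at log2 0.77, and *NimB3* at 2.25. *dome* was not called without any of the 3 circulation libraries or without lymph gland library 1 or 3 (FDR up to 0.0949).

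PSC markers were mostly lower in the circulation, and more crystal cell markers were higher than lower. *PPO1* and *lz* are gate genes of the CC-marker class. *kn*, the transcription factor Collier of the PSC, had 0.169, 0.535 and 1.78 CPM in circulation libraries 1, 2 and 3 and 13.2, 11.1, 7.65 and 11.995 CPM in lymph gland libraries 1 to 4 (log2 difference -3.77 ± 0.53 (SE), FDR = 0.00152). *Antp*, the Hox gene of the PSC, had 1.18, 1.25 and 5.95 CPM in circulation libraries 1, 2 and 3 and 8.55, 7.08, 6.92 and 7.66 CPM in lymph gland libraries 1 to 4 (log2 difference -1.46 ± 0.51 (SE), FDR = 0.0477), and circulation library 3 was the highest of its tissue for both genes. Without it *kn* was lower by log2 -4.99 and *Antp* by log2 -2.67 (FDR = 0.00139), while leaving out any of the other 6 libraries ended the call of *Antp* (FDR up to 0.121). *mthl7* had 937 UMIs in the lymph gland libraries and 0 in the circulation, which is at least 69.7-fold lower when the circulation is set at a floor of 3 UMIs over the group. Of 8 PSC markers 7 were lower and 1, the stress-response gene *chrb*, higher. The crystal cell gene *PPO1*, a prophenoloxidase, had 1062, 1709 and 1369 CPM in circulation libraries 1, 2 and 3 and 685, 478, 298 and 830.3 CPM in lymph gland libraries 1 to 4 (log2 difference 1.27 ± 0.33 (SE), FDR = 0.0159, and FDR = 0.0546 without circulation library 2), and *lz*, the Runx factor that specifies crystal cells, had 8.09, 9.64 and 8.53 CPM in circulation libraries 1, 2 and 3 and 3.12, 2.53, 1.44 and 4.75 CPM in lymph gland libraries 1 to 4 (log2 difference 1.59 ± 0.37 (SE), FDR = 0.0103). In both the circulation libraries were above all 4 lymph gland libraries. Of 9 crystal cell markers 4 were higher and 1 lower. The lamellocyte marker *atilla* varied widely within each tissue, with 158, 173 and 20.2 CPM in circulation libraries 1, 2 and 3 and 83.4, 21.2, 72.4 and 24.7 CPM in lymph gland libraries 1 to 4 (log2 difference 1.21 ± 0.72 (SE), FDR = 0.199). Circulation library 3 was below all 4 lymph gland libraries for *atilla*, and without it the difference was log2 1.67 (FDR = 0.0431). Of 9 lamellocyte markers 2 were lower (*mys* and *CG42792*) and 0 higher, without that library 2 and 4, and on library totals 1 and 3.

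Across 8172 tested genes, 3712 (45.4%) were called, 1882 higher and 1830 lower in the circulation. For 50.6% of the tested genes the libraries of the tissues did not overlap. Without circulation library 3 the count was 3502 of 8739, or 40.1%, with 19.6% higher and 20.4% lower. The even split between higher and lower rests on the TMM scaling, which raised the circulation library sizes and lowered the lymph gland sizes. Computed on all genes, the factors were 1.27 to 1.35 in the circulation and 0.760 to 0.865 in the lymph gland. The tests used factors computed on the genes that passed the filter on counts, which are not given here. With library totals in its place, an alternative chosen after seeing the data, the median gene moved up by 0.52 on the log2 scale and 3906 genes (47.8% of those tested) were called higher and 778 (9.52%) lower, so that 83.4% of the calls were higher against 50.7%. In all 57.3% of genes were then called. Small differences below are therefore relative to the median gene, and lists whose balance turns with this choice are marked. Counts of list members called at 120 h are to be read against 23.0% of all tested genes higher and 22.4% lower. On library totals (without TMM) those shares were 47.8 and 9.52%.

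The 12 genes with the largest rise among those called, at 20 CPM or more and with no overlap, were in order *Lsp1beta*, *Lsp1gamma*, *Adh*, *Acer*, *loh*, *bt*, *up*, *nrv3*, *sls*, *Cyp6w1*, *CG43799* and *CG31051*. *Lsp1beta* and *Lsp1gamma* encode larval serum proteins of the fat body, *Adh* alcohol dehydrogenase, and *bt*, *up* and *sls* proteins of the muscle sarcomere. Both groups are taken up with the other genes of other tissues below. *Acer*, an angiotensin-converting enzyme relative, had 15.3, 12.7 and 66.04 CPM in circulation libraries 1, 2 and 3 and 0.331, 0.155, 0.256 and 0.916 CPM in lymph gland libraries 1 to 4 (log2 difference 6.39 ± 0.77 (SE), FDR = 0.00102). It was highest in circulation library 3, as was *loh*, an extracellular matrix protein gene, at 4.89, 3.39 and 178 CPM in circulation libraries 1, 2 and 3 and 0.567, 0.6203, 0.929 and 0.916 CPM in lymph gland libraries 1 to 4. Without that library the log2 difference was 5.17 for *Acer* and 2.40 (FDR = 0.00496) for *loh*, against 6.34 with it. *Cyp6w1*, a cytochrome P450, and *CG43799* leaned on it too, at 5.27 and 4.36 with it and 3.19 and 2.88 without. *Adh*, *nrv3* and *CG31051* went from 6.89, 5.99 and 4.34 to 5.41, 5.40 and 3.70 without it. Whether *Adh* RNA came from hemocytes or from other tissues was not tested.

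The 12 largest falls were *CG42792*, *AttA*, *CG15115*, *e*, *PGRP-SC2*, *CecA1*, *CG43773*, *CecA2*, *CG6023*, *AttB*, *Dro* and *CR45045*. Of these, 5 encode antimicrobial peptides (*AttA*, *AttB*, *CecA1*, *CecA2* and *Dro*), and *PGRP-SC2* encodes an amidase that cleaves peptidoglycan. *e* (*ebony*), the synthase of N-beta-alanyl dopamine, had 0, 0.535 and 0 CPM in circulation libraries 1, 2 and 3 and 56.3, 42.9, 76.04 and 6.997 CPM in lymph gland libraries 1 to 4 (log2 difference -7.92 ± 1.25 (SE), FDR = 0.00233). Its lymph gland levels varied over a wide range, and all lay above the circulation. *CG42792* had 0, 0.535 and 0 CPM in circulation libraries 1, 2 and 3 and 88.1, 107, 99.6 and 2.08 CPM in lymph gland libraries 1 to 4, with lymph gland library 4 near the circulation. *e*, *CG42792*, *CG15115* and *CG43773* had a UMI in the circulation only in library 2, so the size of their differences rests on that library and on 2 or 3 UMIs. For *e* the lymph gland level was 296 times that of the circulation, with a 95% interval of 101 to 1434 for counting error alone, and for *CG42792* 467 times (159.6 to 2263).

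The same test within PM-marker cells called 3238 of 7376 genes (43.9%), 1670 higher and 1568 lower. These cells were gated on all their UMIs, without thinning, so the gate was not matched for depth. Of the calls in all cells among genes tested in both, 2893 were called in the same direction in PM-marker cells, 86.3% of the former and 89.3% of the latter, and 0 in the opposite direction. The 7 libraries are the same in both, so the overlap is a description. *Lip4*, a lipase gene among the prohemocyte markers, differed by log2 -6.67 in all cells and by -3.54 in PM-marker cells (FDR = 0.00145), and *IM18* by -5.76 and -2.91 (FDR = 0.00783). The genes that define the gates are not results of this test. Most PM-marker cells of both tissues also held a prohemocyte marker UMI. Those without were 26 of 865, 26 of 862, 68 of 2143 and 177 of 1405 in lymph gland libraries 1 to 4. In circulation libraries 1, 2 and 3 they were 121 of 635, 56 of 441 and 111 of 480. With PM-marker cells limited to these, 720 of 2864 tested genes were called, and with cells taken by an *Hml* UMI and no *Tep4* UMI, 2126 of 6108. Both are smaller shares than the 43.9% above.

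**Figure D2:**
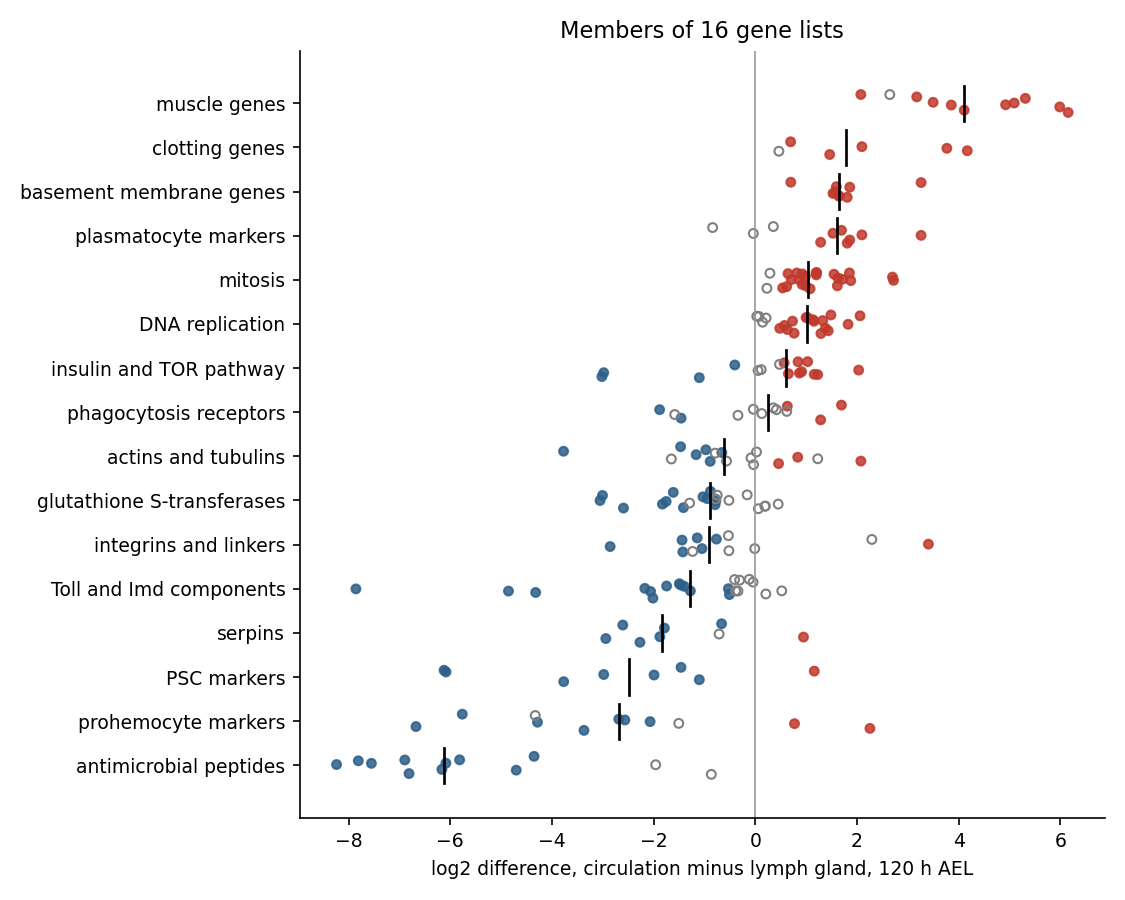
Members of 16 gene lists, with the log2 difference of circulation minus lymph gland at 120 h AEL on the horizontal axis. Filled points were called (red higher, blue lower), open points were not, black bars are list medians, and genes with no UMI in a tissue are drawn at their bound; antimicrobial peptides lie at a median of -6.13 and basement membrane genes at 1.65.

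Basement membrane genes were higher in the circulation as a group. Of 10 listed genes 9 were tested, all 9 were called higher against 23.0% of all genes, and their median log2 difference was 1.65. *Cg25C* and *vkg* encode the 2 chains of collagen IV. *Cg25C* had 2591, 2183 and 4307 CPM in circulation libraries 1, 2 and 3 and 783, 1099, 1033 and 1284 CPM in lymph gland libraries 1 to 4 (log2 difference 1.53 ± 0.26 (SE), FDR = 0.0029), and *vkg* had 1202, 1061 and 2280.2 CPM in circulation libraries 1, 2 and 3 and 272, 435, 452 and 572 CPM in lymph gland libraries 1 to 4 (log2 difference 1.81 ± 0.32 (SE), FDR = 0.00362). Both were highest in circulation library 3, and both groups of libraries were clear of each other. The laminin chains *LanA*, *LanB1* and *LanB2* differed by log2 1.65, 1.59 and 1.65, the perlecan gene *trol* by 1.57 and the calcium-binding matrix protein gene *BM-40-SPARC* by 0.70. *Ppn* (papilin) had 1229, 923 and 3596 CPM in circulation libraries 1, 2 and 3 and 101, 160.2, 143 and 396 CPM in lymph gland libraries 1 to 4 (log2 difference 3.26 ± 0.61 (SE), FDR = 0.0043), and without circulation library 3 the difference was 2.40 (FDR = 0.00929). All 9 stayed called with any of the 7 libraries left out. Within PM-marker cells 7 of the 8 members outside the gate were higher (22.6% of all genes were), and *BM-40-SPARC* was at log2 0.08 (FDR = 0.679). Of the 10 genes that fold and secrete collagen 3 were higher, near the 23.0% of all genes, and 0 lower, at a median of 0.21.

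Clotting genes were also more often higher. Of 6 tested, 5 were higher and 0 lower (median 1.78), and outside the gate 4 of 5 were higher in PM-marker cells. *Glt* (glutactin) had 3403, 3028 and 3413 CPM in circulation libraries 1, 2 and 3 and 884, 1383, 1332 and 1161 CPM in lymph gland libraries 1 to 4 (log2 difference 1.46 ± 0.17 (SE), FDR = 0.000844). The clot protein gene *fon* (fondue) was far less abundant, with 3.202, 3.93 and 6.74 CPM in circulation libraries 1, 2 and 3 and 0.425, 0.155, 0.224 and 0.167 CPM in lymph gland libraries 1 to 4 (log2 difference 4.17 ± 0.48 (SE), FDR = 0.000886). *Rfabg*, the apolipophorin precursor that the fat body makes in quantity, had 90.8, 89.2 and 134 CPM in circulation libraries 1, 2 and 3 and 5.62, 10.8, 9.25 and 4.75 CPM in lymph gland libraries 1 to 4 (log2 difference 3.77 ± 0.31 (SE), FDR = 0.000422). It is also on the list of fat body genes, which summed to 260 to 290 CPM in the circulation and 17.2 to 21.5 CPM in the lymph gland, and the part of fat body RNA in its level was not tested. *Idgf3* was the member not called, at log2 0.46.

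Receptors for engulfment did not move as a group. Of 12 phagocytosis and scavenger receptors 3 were higher and 2 lower, at a median of 0.24, near the shares of all genes (23.0 and 22.4%). Without TMM 6 were higher, where 47.8% of all genes were. *Sr-CI*, a scavenger receptor of plasmatocytes, had 1220.0, 1028 and 1426 CPM in circulation libraries 1, 2 and 3 and 304, 429, 300.4 and 480.3 CPM in lymph gland libraries 1 to 4 (log2 difference 1.69 ± 0.21 (SE), FDR = 0.00107). *Sr-CIII*, of the same family, went the other way with 10.8, 9.46 and 11.5 CPM in circulation libraries 1, 2 and 3 and 39.6, 35.4, 29.5 and 51.8 CPM in lymph gland libraries 1 to 4 (log2 difference -1.88 ± 0.22 (SE), FDR = 0.000886). Neither pair of groups overlapped. *drpr*, the receptor Draper for dying cells, had 128, 153 and 155 CPM in circulation libraries 1, 2 and 3 and 131, 153, 154 and 93.7 CPM in lymph gland libraries 1 to 4 and was not called (log2 difference 0.13 ± 0.19 (SE), FDR = 0.611). The secreted Nimrod gene *NimB3* had 13.3, 8.03 and 14.7 CPM in circulation libraries 1, 2 and 3 and 2.22, 2.43, 2.02 and 3.499 CPM in lymph gland libraries 1 to 4 (log2 difference 2.25 ± 0.28 (SE), FDR = 0.0011), and *NimB4* was higher by log2 0.50 (FDR = 0.0161), but not without circulation library 1 or 2 (FDR up to 0.0813). The remaining 3 secreted Nimrod genes tested were not called.

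Antimicrobial peptide genes were the list with the lowest median in the circulation. The study reports some lymph gland subclusters with high immune response genes, and states that library preparation could activate hemocytes. It left genes at least 10-fold off bulk RNA-seq out of its own comparison of the tissues. Whether these peptide genes were among them was not tested. For these genes too, the tissue and its preparation cannot be told apart. Of 14 listed, 12 were tested, 10 were called lower against 22.4% of all genes and 0 higher, and the median log2 difference was -6.13. *AttA*, an attacin acting against Gram-negative bacteria, had 0.169, 2.14 and 3.77 CPM in circulation libraries 1, 2 and 3 and 606, 573, 658 and 549.8 CPM in lymph gland libraries 1 to 4 (log2 difference -8.24 ± 0.62 (SE), FDR = 0.00037). *CecA1*, a cecropin, had 0, 6.42 and 0.397 CPM in circulation libraries 1, 2 and 3 and 490.1, 372, 523 and 672 CPM in lymph gland libraries 1 to 4 (log2 difference -7.81 ± 0.98 (SE), FDR = 0.00112). *Drs* (Drosomycin), the antifungal peptide that serves as a readout of the Toll pathway, had 34.04, 145 and 23.998 CPM in circulation libraries 1, 2 and 3 and 1513, 1883, 2379.7 and 1285 CPM in lymph gland libraries 1 to 4 (log2 difference -4.70 ± 0.69 (SE), FDR = 0.00176). In all 3 the lowest lymph gland library was several times above the highest circulation library, and circulation library 1 or 3 was the lowest of all. *CecA2*, *CecB* and *CecC* were lower by log2 differences of -7.55, -6.16 and -5.82, *AttB* and *AttD* of -6.89 and -6.09, *Dro* (Drosocin) of -6.81 and *DptB*, a diptericin, of -4.35. The cecropins, and *AttA* with *AttB*, are close copies of one another, and reads may have been split between them. *Mtk* (Metchnikowin) had 2.02, 36.6 and 21.2 CPM in circulation libraries 1, 2 and 3 and 25.6, 29.1, 53.9 and 36.2 CPM in lymph gland libraries 1 to 4, with overlapping groups (log2 difference -0.87 ± 0.68 (SE), FDR = 0.326), and *AttC* was not called (log2 difference -1.96 ± 0.90 (SE), FDR = 0.107). Without circulation library 3 *AttA*, *AttD* and *CecC* were at -9.07, -7.35 and -6.48, and without circulation library 2 *Drs*, *Dro*, *DptB*, *AttB*, *CecA2* and *CecB* were at -5.94, -7.88, -6.20, -7.50, -8.53 and -7.58. *CecA1* then had 2 UMIs in the circulation. *AttC* was also lower without circulation library 3, by log2 -4.88 (FDR = 0.00597). In PM-marker cells 10 were lower too (21.3% of all genes were), where *AttA* differed by -7.17 and *Drs* by -5.01.

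**Figure D3:**
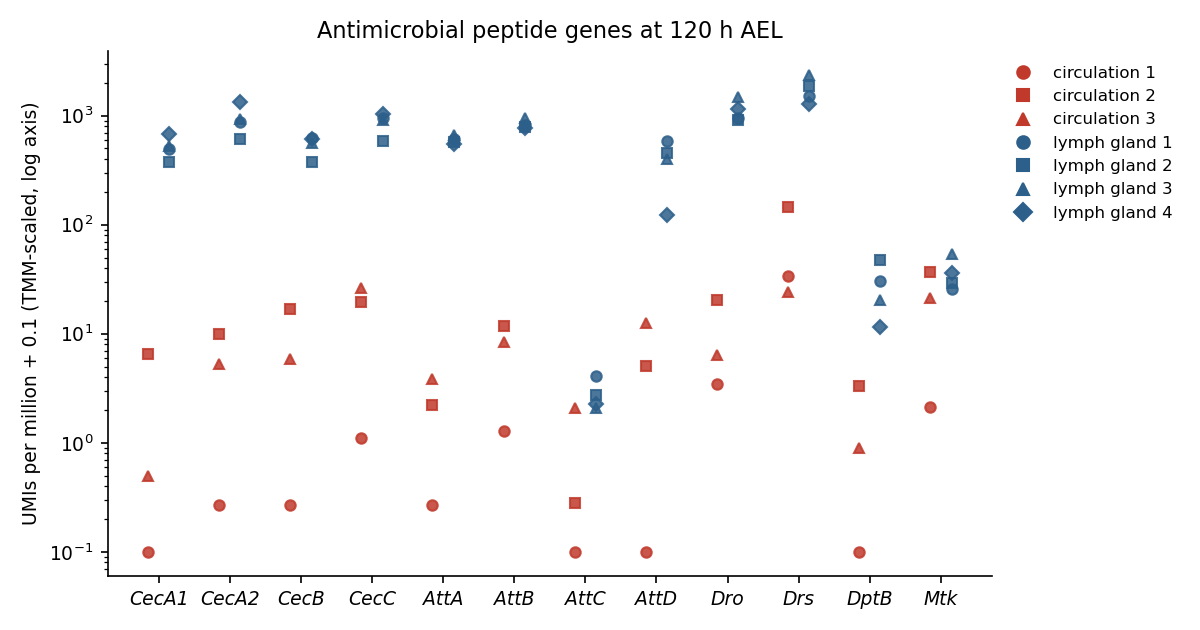
Antimicrobial peptide genes by library at 120 h AEL, with TMM-scaled CPM plus 0.1 on a logarithmic vertical axis; red symbols are the 3 circulation libraries and blue symbols the 4 lymph gland libraries. For 11 of the 12 genes every lymph gland library lies above every circulation library, as in *Drs* (lymph gland 1285 to 2379.7 CPM, circulation 23.998 to 145 CPM); *Mtk* overlaps, and *AttC* nearly does.

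Components of the Toll and Imd pathways, which switch these peptides on, were lower or not called. For them too, the tissue and its preparation cannot be told apart. Of 21 tested 13 were lower and 0 higher (median -1.28), and without TMM 10 were lower and 3 higher. *Rel* (Relish), the NF-kappaB factor of the Imd pathway, had 135, 387 and 353 CPM in circulation libraries 1, 2 and 3 and 1137, 1003, 1460.0 and 1262 CPM in lymph gland libraries 1 to 4 (log2 difference -2.06 ± 0.35 (SE), FDR = 0.00314). *PGRP-LB*, a peptidoglycan amidase that damps Imd signaling and is itself induced by it, had 4.72, 6.603 and 8.73 CPM in circulation libraries 1, 2 and 3 and 171, 189, 181 and 229 CPM in lymph gland libraries 1 to 4 (log2 difference -4.85 ± 0.25 (SE), FDR = 0.000148). The circulation libraries were below all lymph gland libraries in both, and circulation library 1 was the lowest. Other negative regulators of the Imd pathway were lower as well, *pirk* at log2 -1.75 and *PGRP-LF* at -2.01 (-2.81 without circulation library 3). So were the Toll-side genes *PGRP-SA*, a recognition protein, at -2.17 and *pll*, the kinase Pelle, at -1.28, and *key*, the IKK-gamma homolog, at -1.49. *PGRP-LC*, the Imd receptor, and *Tl*, the Toll receptor, were not called (log2 -0.34 and 0.21). Among thioester proteins *Tep2* had 8.43, 9.101 and 1.59 CPM in circulation libraries 1, 2 and 3 and 59.3, 56.8, 79.1 and 61.1 CPM in lymph gland libraries 1 to 4 (log2 difference -3.31 ± 0.45 (SE), FDR = 0.00143), and 3 of 4 were lower. Of 8 serpins tested, inhibitors of serine proteases, 6 were lower and 1 higher, with *Spn55B* at log2 -2.94 and *Spn42Da* at -1.79, and the higher being *Spn28Dc* at 0.95.

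Within the lymph gland the antimicrobial transcripts lay in both main marker classes. In thinned cells a cecropin UMI was seen in 26.3 to 40.4% of PM-marker cells and in 33.9 to 73.1% of PH-marker cells over the 4 libraries. In circulating PM-marker cells the share was 0, 3.97 and 2.26%. The 29 to 64 CC-marker cells of each lymph gland library also had one in 15.6 to 48.4%, so part of these shares may be free RNA, which was not tested. *CecA1* was higher in PH- than in PM-marker cells in 4 of 4 lymph gland libraries, at 638 ± 205 against 219 ± 66.6 UMIs per 1000000 of the class (SD, n = 4). *Drs* was lower in PH-marker cells in 4 of 4, at 1066 ± 402 against 2040.0 ± 418. Each gave p = 0.125 in an exact sign-flip permutation test, the smallest 4 libraries allow, and 0.134 after adjustment over the 15 genes compared. *Drs* and *CecA1* were both lower in the circulation, although the lymph gland class with the higher level was the PM-marker class for *Drs* and the PH-marker class for *CecA1*.

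Genes of the cell cycle were higher in the circulation. Of 24 mitosis genes 22 were called higher and 0 lower (median 1.03), and of 20 DNA replication genes 16 were higher and 0 lower (median 1.01). *stg*, the Cdc25 phosphatase that starts mitosis, had 243, 172 and 247 CPM in circulation libraries 1, 2 and 3 and 25.9, 41.7, 16.1 and 52.6 CPM in lymph gland libraries 1 to 4 (log2 difference 2.70 ± 0.38 (SE), FDR = 0.00152). *CycB* had 39.1, 36.6 and 40.5 CPM in circulation libraries 1, 2 and 3 and 11.01, 12.97, 8.32 and 15.2 CPM in lymph gland libraries 1 to 4 (log2 difference 1.71 ± 0.20 (SE), FDR = 0.000911). In both genes every circulation library exceeded the highest lymph gland library, which was library 4, by more than 2-fold. The spindle protein gene *asp* differed by log2 2.72, the condensin subunit *Cap-G* by 1.85, *aurA* (Aurora A) by 1.63 and the kinesin *pav* by 1.61. For replication, *CycE* had 19.9, 24.1 and 22.4 CPM in circulation libraries 1, 2 and 3 and 7.51, 8.53, 5.64 and 11.3 CPM in lymph gland libraries 1 to 4 (log2 difference 1.43 ± 0.23 (SE), FDR = 0.00243). The licensing factor *dup* differed by 1.49, the helicase subunit *Mcm7* by 1.38 and the DNA primase subunit *DNApol-alpha60* by 2.06. *Cdk1* and *geminin* were at log2 0.23 and 0.07 and were not called. In PM-marker cells alone 21 of 24 mitosis and 15 of 19 replication genes were higher. Without circulation library 3 the counts were 13 of 24 and 12 of 20, and the medians 0.98 and 0.92. With any library left out in turn they ranged from 13 to 21 and from 11 to 16.

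Insulin and TOR pathway genes, which couple growth to feeding, held changes both ways. Of 16 tested 9 were higher and 4 lower (median 0.61), where 23.0% of all genes were higher and 22.4% lower. Without circulation library 3 the counts were 8 and 2. The kinase genes *Tor* and *Akt1* differed by log2 1.23 (FDR = 0.0131, and 0.0503 without circulation library 1) and 0.65, *raptor* by 0.91 and *foxo*, the transcription factor that insulin signaling restrains, by 1.03. *scyl*, a hypoxia-inducible inhibitor of TOR, had 363, 283 and 344 CPM in circulation libraries 1, 2 and 3 and 50.4, 111, 49.8 and 112 CPM in lymph gland libraries 1 to 4 (log2 difference 2.03 ± 0.33 (SE), FDR = 0.00256). *Thor*, the 4E-BP translation inhibitor, moved the opposite way with 75.996, 66.7 and 59.9 CPM in circulation libraries 1, 2 and 3 and 605, 709, 639 and 235 CPM in lymph gland libraries 1 to 4 (log2 difference -3.02 ± 0.38 (SE), FDR = 0.00111). The insulin-binding antagonist *ImpL2* had 6.91, 16.4 and 1.59 CPM in circulation libraries 1, 2 and 3 and 93.7, 67.04, 80.7 and 22.6 CPM in lymph gland libraries 1 to 4 (log2 difference -2.98 ± 0.71 (SE), FDR = 0.0115, and -3.94 without circulation library 2).

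Integrin genes were more often lower, and other attachment and cytoskeleton genes held calls both ways. Of all tested genes 22.4% were lower and 23.0% higher. Of 12 integrins and their linkers 6 were lower and 1 higher (median -0.91). *mys*, the main beta integrin, differed by log2 -0.77 (FDR = 0.0187, and 0.0551 without circulation library 1), and its linkers *Ilk*, *parvin* and *stck* by -1.14, -1.43 and -1.44. The alpha integrins called went opposite ways. *scb* had 5.56, 20.3 and 2.97 CPM in circulation libraries 1, 2 and 3 and 72.5, 64.6, 102 and 40.8 CPM in lymph gland libraries 1 to 4 (log2 difference -2.86 ± 0.61 (SE), FDR = 0.00742), and *ItgalphaPS5* had 27.1, 16.8 and 64.1 CPM in circulation libraries 1, 2 and 3 and 2.599, 2.12, 4.83 and 3.92 CPM in lymph gland libraries 1 to 4 (log2 difference 3.40 ± 0.48 (SE), FDR = 0.00154). *ItgalphaPS5* differed by log2 2.66 without circulation library 3, and without circulation library 2 *scb* by -4.03. Of 16 actin and tubulin genes 6 were lower and 3 higher, and without TMM 4 and 5. *Act5C*, the main cytoplasmic actin, had 3778, 5271 and 4049 CPM in circulation libraries 1, 2 and 3 and 12673, 12757, 13827 and 9081 CPM in lymph gland libraries 1 to 4 (log2 difference -1.47 ± 0.18 (SE), FDR = 0.0011). The profilin gene *chic* and the cofilin gene *tsr* differed by log2 -1.16 and -0.97, while *Moe* (moesin) stood at 0.02 and was not called. Of 12 septate junction and adhesion genes 4 were higher and 3 lower, not far from the shares of all genes, and without TMM 6 and 3. Among them *Nrt* (neurotactin) had 29.8, 54.3 and 36.9 CPM in circulation libraries 1, 2 and 3 and 516, 423, 583 and 546 CPM in lymph gland libraries 1 to 4 (log2 difference -3.68 ± 0.25 (SE), FDR = 0.000342). *Fas3* was lower by log2 -2.36, and the teneurins *Ten-m* and *Ten-a* were higher, at 1.49 and 2.39.

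Immediate early and JNK pathway genes, which dissociation and wounding are known to induce, were partly lower in the circulation. Of 11 tested 4 were lower and 1 higher, where 22.4% of all genes were lower and 23.0% higher, and without TMM 4 and 3. *Jra*, the fly Jun, had 113, 239 and 204 CPM in circulation libraries 1, 2 and 3 and 1119, 889, 1248 and 762 CPM in lymph gland libraries 1 to 4 (log2 difference -2.44 ± 0.30 (SE), FDR = 0.00104). The JNK phosphatase *puc* differed by log2 -1.17 (FDR = 0.00288) and the matrix metalloprotease *Mmp1* by -2.24 (FDR = 0.00797, and -2.85 without circulation library 2). *kay*, the fly Fos, overlapped between the tissues (log2 -0.17). Their summed level was 816 to 1667 CPM in the circulation and 2996 to 4119 CPM in the lymph gland, and heat shock genes summed to 2533 to 3472 and 1847 to 23860 CPM, the last in lymph gland library 2. Of the 11 heat shock genes tested 1 was lower and 0 higher. The lymph gland was dissociated with enzymes, and the tissue and its preparation cannot be told apart in these genes.

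Glutathione S-transferases, enzymes of detoxification, were lower or not called. Of 21 tested 12 were lower and 0 higher (median -0.88), and without TMM 7 were lower and 1 higher. *GstD1*, an abundant member, had 2559.9, 2736 and 1306 CPM in circulation libraries 1, 2 and 3 and 8209, 8823, 7568 and 5087 CPM in lymph gland libraries 1 to 4 (log2 difference -1.75 ± 0.30 (SE), FDR = 0.00295), with circulation library 3 the lowest. *GstO3*, of the omega class, had 315, 400.3 and 162 CPM in circulation libraries 1, 2 and 3 and 2482, 3118, 2737 and 1381 CPM in lymph gland libraries 1 to 4 (log2 difference -3.05 ± 0.39 (SE), FDR = 0.00115). Lipid genes were higher in 6 and lower in 3 of 14 tested, against 23.0 and 22.4% of all genes, and without TMM in 10 and 2. *Lsd-2*, the perilipin of lipid droplets, had 375, 454 and 309.6 CPM in circulation libraries 1, 2 and 3 and 55.8, 132, 49.9 and 69.97 CPM in lymph gland libraries 1 to 4 (log2 difference 2.30 ± 0.34 (SE), FDR = 0.00177). *LpR2*, a lipophorin receptor, had 259, 226 and 735 CPM in circulation libraries 1, 2 and 3 and 70.2, 73.9, 58.3 and 48.2 CPM in lymph gland libraries 1 to 4 (log2 difference 2.70 ± 0.41 (SE), FDR = 0.002, and 1.91 without circulation library 3). In glycolysis and sugar metabolism 5 of 18 were higher and 5 lower, near the shares of all genes, and without TMM 10 and 3. The first enzyme of the pathway, the hexokinase *Hex-A*, had 146, 147 and 169 CPM in circulation libraries 1, 2 and 3 and 36.5, 41.6, 34.4 and 56.7 CPM in lymph gland libraries 1 to 4 (log2 difference 1.86 ± 0.19 (SE), FDR = 0.000644). Of the later enzymes some were lower, *Tpi* by log2 -2.29, *Gapdh2* by -1.43 and *Pgk* by -0.56, while *Pglym78*, *Eno* and *PyK* were not called (log2 -0.04, -0.28 and 0.21). The lactate dehydrogenase gene *ImpL3* was scarce but higher at 3.96. *Pepck*, of gluconeogenesis, was higher at 2.53 and *Treh*, which cleaves the blood sugar trehalose, at 1.44. *Pgk* was not lower on library totals, at -0.04.

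Signaling and transcription factor genes held opposite changes within pathways. In the Notch pathway 5 of 12 genes were lower and 2 higher, where 22.4% of all genes were lower and 23.0% higher. Without TMM the counts were 5 and 5. *E(spl)mbeta-HLH*, a target of Notch, had 68.2, 55.9 and 115 CPM in circulation libraries 1, 2 and 3 and 590.1, 429, 567 and 555 CPM in lymph gland libraries 1 to 4 (log2 difference -2.75 ± 0.27 (SE), FDR = 0.000619), and the other targets called were lower too: *E(spl)m3-HLH* at log2 -1.88, *E(spl)malpha-BFM* at -3.34 (-4.73 without circulation library 2), *E(spl)mgamma-HLH*, at 12.7 times the circulation level in the lymph gland (95% counting interval 3.44 to 105.8, from 2 UMIs in the circulation), and *E(spl)m8-HLH*, with 122 UMIs in the lymph gland and 0 in the circulation. The ligand *Ser* (Serrate) had 14.7, 11.1 and 14.3 CPM in circulation libraries 1, 2 and 3 and 1.32, 2.48, 0.512 and 2.499 CPM in lymph gland libraries 1 to 4 (log2 difference 3.01 ± 0.48 (SE), FDR = 0.00241), and *H* (Hairless), the co-repressor of the pathway, was higher at 0.97. In JAK/STAT signaling the cytokine genes *upd3* and *upd2* were lower by log2 -2.59 and -2.16, the kinase *hop* was higher at 0.87, and the short receptor *et* that blocks signaling was lower at -1.22. Neither *Stat92E* nor the GATA factor *srp* was called (log2 -0.09 and 0.20). *ush* (U-shaped), the Friend-of-GATA partner of *srp*, had 59.7, 67.5 and 68.03 CPM in circulation libraries 1, 2 and 3 and 22.8, 32.9, 27.2 and 23.4 CPM in lymph gland libraries 1 to 4 (log2 difference 1.29 ± 0.16 (SE), FDR = 0.00102), and the forkhead factor *jumu* differed by 1.72.

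The Hox gene *Ubx* was near the detection limit in both tissues. In thinned cells a *Ubx* UMI was seen in 0 of 641, 1 of 487 and 1 of 502 circulating cells and in 8 of 2536, 5 of 1809, 5 of 4336 and 6 of 2061 lymph gland cells. The mean shares were 0.135 and 0.250% and did not differ beyond the spread between libraries (p = 0.229, two-sided exact permutation test). Without thinning, or thinned to 1000 UMIs, the circulation mean was the higher, by 0.0294 and 0.0587 percentage points (p = 0.914 and 0.686, exact permutation tests). In all UMIs of the kept cells 8 circulating cells, 6 of them PM-marker, and 48 lymph gland cells, 44 of them PH-marker and 3 PM-marker, held a *Ubx* UMI. Among PM-marker cells these were 6 of 1556 in the circulation and 3 of 5275 in the lymph gland, in cells not matched for depth. The fit on summed libraries gave log2 difference -1.75 ± 0.60 (SE), FDR = 0.0427, but the call was lost without any of the 3 circulation libraries (FDR = 0.1 without library 3), with a ceiling on UMIs per cell and on library totals. A count of 0 in 641 cells allows a share of cells with a UMI of up to 0.468%, above the mean of either tissue.

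Among secreted peptides and their processing enzymes, *Nplp2*, a neuropeptide-like precursor gene, was the most abundant, with 8918, 7405 and 28392 CPM in circulation libraries 1, 2 and 3 and 1957, 2345, 2127 and 4954 CPM in lymph gland libraries 1 to 4 (log2 difference 2.39 ± 0.52 (SE), FDR = 0.00822). Circulation library 3 held more than 3 times the level of the other circulation libraries, and without it the difference was log2 1.49 (FDR = 0.0166). The angiotensin-converting enzyme relatives parted from *Ance* itself. *Ance-5* had 529.9, 481 and 841 CPM in circulation libraries 1, 2 and 3 and 93.6, 143, 118 and 138 CPM in lymph gland libraries 1 to 4 (log2 difference 2.33 ± 0.24 (SE), FDR = 0.000629), and *Ance-2* had 6.07, 5.89 and 1.78 CPM in circulation libraries 1, 2 and 3 and 44.4, 31.5, 49.1 and 67.5 CPM in lymph gland libraries 1 to 4 (log2 difference -3.37 ± 0.42 (SE), FDR = 0.00109).

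Fat body and muscle genes were higher in the circulation, and their UMIs may be free RNA, which can enter the droplet of any cell. Other tissues varied. Of all tested genes 23.0% were higher. Neuron genes were higher in 3 of 4 tested (7 listed) and cuticle genes in 2 of 3 (8 listed). Only 1 of 12 listed gut and salivary gland genes was tested, and it was higher. Summed neuron genes overlapped between the tissues, at 410 to 585 CPM in the circulation and 267 to 523 CPM in the lymph gland. Summed gut and salivary gland genes overlapped too, at 2.70 to 7.34 and 0.614 to 4.50 CPM. Ring gland genes were higher in 0 of 2 and dorsal vessel genes in 0 of 1. Cuticle genes summed to 77.0 to 812 CPM in the circulation and 253 to 1067 CPM in the lymph gland. The *Lsp1* genes, made by the fat body, had a UMI in 16.9, 24.8 and 16.5% of thinned circulating PM-marker cells and in 22.2, 17.4 and 19.0% of CC-marker cells (4 of 18, 4 of 23 and 8 of 42). Among the few PH-marker cells of the circulation 0 of 19, 2 of 19 and 0 of 1 had one. In the lymph gland the share was at most 0.118% in PM- and PH-marker cells of any library. *Lsp1beta* had 69.9, 68.2 and 101 CPM in circulation libraries 1, 2 and 3 and 0.236, 0.0517, 0.03202 and 0.0833 CPM in lymph gland libraries 1 to 4. Of the 6 fat body genes tested, of 12 listed, 5 were higher. Its defining members *Fbp1*, *Fbp2* and *Lsp2* did not pass the filter on counts per library. *Fbp2* had 114, 167 and 1 UMIs in circulation libraries 1, 2 and 3 and 10 in the lymph gland, *Lsp2* 93, 81 and 0 against 11 and *Fbp1* 24, 38 and 0 against 4, so circulation library 3 nearly lacked them. Without that library 11 fat body genes were tested and 9 were higher. Muscle genes followed the same form with more weight on a library. Of 11 tested 10 were higher (median 4.11), with the troponin T gene *up* at 39.8, 51.9 and 95.001 CPM in circulation libraries 1, 2 and 3 and 0.378, 0.517, 1.66 and 1.25 CPM in lymph gland libraries 1 to 4 (log2 difference 5.99 ± 0.52 (SE), FDR = 0.000432) and *bt* at 22.7, 26.6 and 229 CPM in circulation libraries 1, 2 and 3 and 0.803, 1.14, 1.99 and 1.08 CPM in lymph gland libraries 1 to 4 (log2 difference 6.15 ± 0.92 (SE), FDR = 0.00188). A muscle gene UMI was seen in 26.2, 23.6 and 47.2% of circulating PM-marker cells, in 22.2, 17.4 and 57.1% of CC-marker cells and in 0.840 to 2.44% of lymph gland PM-marker cells. Without circulation library 3 *sls* moved from log2 5.31 to 2.84 and *bt* to 4.21, and 10 of 11 were still higher. In circulation library 3 the muscle UMIs of PM-marker cells sat in few cells. There 6 of 480 cells held at least 50% of 2634 UMIs, and 1 cell held 747. In libraries 1 and 2 that share took 70 of 635 and 46 of 441 cells. The sources of these transcripts, such as fat body and muscle RNA set free in preparation or expression in hemocytes, were not tested.

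**Figure D4:**
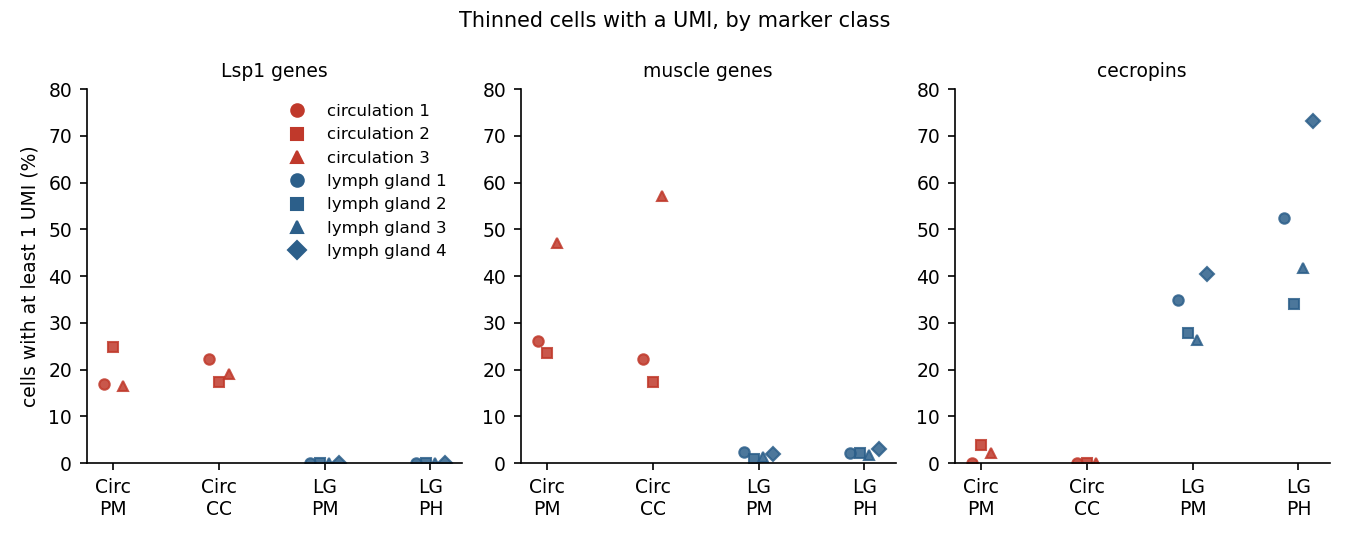
Percent of cells, thinned to 2000 UMIs, with at least 1 UMI of the *Lsp1* genes, the muscle genes or the cecropins, by marker class (PM plasmatocyte, CC crystal cell, PH prohemocyte) in circulation (Circ, red) and lymph gland (LG, blue). Each symbol is a library; *Lsp1* and muscle UMIs are seen in PM- and CC-marker cells of the circulation (16.5 to 24.8% and 17.4 to 22.2% for *Lsp1*), and cecropin UMIs in PM- and PH-marker cells of the lymph gland.

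Each tissue was also without UMIs of some genes tested at this depth. At 0 UMIs in all 4 lymph gland libraries stood 29 tested genes, 24 of them highest in circulation library 2 and 5 in library 3. They include *Mst77F* and *Mst35Bb*, which encode sperm chromatin proteins, chosen for mention after their values were seen. *Mst77F* had 2.36, 31.8 and 3.77 CPM in circulation libraries 1, 2 and 3, which is at least 353-fold above a floor of 3 UMIs over the lymph gland libraries, and at least 85.5-fold without circulation library 2. At 0 in the circulation stood 10 tested genes, *mthl7* among them. A gene missing from a tissue's deposited tables was read as having no UMI there. Dorsal vessel genes *Hand* and *tin* and ring gland genes *phm* and *spok* had 0 UMIs in the circulation.

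The same tissue comparison at 96 h AEL, with 3 circulation and 5 lymph gland libraries, used other libraries, none of them in the 120 h comparison. The 38 barcodes that its circulation library 3 shared with circulation library 1 of 120 h were kept here and in the interaction test below. It called 3811 of 7629 genes (50.0%), 2063 (27.0%) higher and 1748 (22.9%) lower. Of 7519 genes tested at both ages 3419 were called at 120 h and 3729 at 96 h, and 1941 were called in the same direction, 56.8% of the 120 h calls and 52.1% of the 96 h calls. Of those 1030 were higher and 911 lower in the circulation at both ages. Another 98 were called in opposite directions, 67 of them lower in the circulation at 120 h. All 9 basement membrane genes were higher at 96 h too, with *Cg25C* at log2 2.18 and *vkg* at 1.97. Antimicrobial peptides were lower in 8 and higher in 1 of 11 tested at 96 h, with *CecA1* at -7.45 and the higher being *Mtk* at 1.04. *Drs* was not called at 96 h (log2 -1.60, FDR = 0.107). Without library 3 of the 96 h circulation 10 of 11 were lower and 0 higher, *Drs* was lower by log2 -3.87 (FDR = 5.29e-05) and *Mtk* was at 0.61 (FDR = 0.133). With library 3 of both ages left out, 3688 of 7952 genes (46.4%, with 24.2% higher and 22.2% lower) were called at 96 h, and of 7795 tested at both ages 1947 were called in the same direction, 62.8% of the 120 h calls and 53.8% of the 96 h calls, and 40 in opposite directions.

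The change of the tissue difference with age was tested as an interaction over 15 libraries, and 1490 of 8662 genes (17.2%) were called, 648 (7.48%) with a difference at 120 h above that at 96 h and 842 (9.72%) below. Without library 3 of both circulation ages the count was 469 (5.18%), with 1.94% above and 3.24% below. Mitosis genes were called above in 17 of 24 and DNA replication genes in 9 of 20, and 0 below. At 96 h 6 mitosis genes were higher and 3 lower in the circulation, and 6 and 4 replication genes. *Cap-G* had an interaction of log2 1.75 (FDR = 0.00353), and 1.70 (FDR = 0.0194) without the 2 libraries. *ncd*, a spindle kinesin, was at 1.53 (FDR = 0.00931) and 1.20 (FDR = 0.0485). Without the 2 libraries 5 mitosis and 4 replication genes were called above. Muscle genes were called above in 7 of 11, and in 2 of 11 without those libraries, *Mhc* among them at 3.57 (FDR = 0.0347). *Nplp2* was at log2 -0.67 at 96 h and 2.39 at 120 h, an interaction of 3.11 (FDR = 0.0122), and of 1.80 (FDR = 0.0224) without the 2 libraries.

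Receptors and adhesion genes changed the other way with age. Of 12 phagocytosis receptors 5 were called below and 1 above. *drpr* was higher in the circulation by log2 2.65 at 96 h and stood at 0.13 at 120 h, an interaction of -2.47 (FDR = 0.000154). *crq* (Croquemort), the CD36-family receptor, went from 2.72 to -0.04 (interaction FDR = 0.00517), and *eater* from 1.73 to 0.35 (FDR = 0.00359). These 3 were also called without library 3 of both ages, with FDR = 0.000743, 0.0155 and 0.0201. *Gal*, the beta-galactosidase gene, went from log2 6.15 to -0.85 (interaction -6.96, FDR = 0.000889, and FDR = 0.00442 without the 2 libraries). Of 12 septate junction and adhesion genes 6 were called below, and 3 without the 2 libraries. *Ten-m* was higher at both ages, by 3.32 and 1.49, with an interaction of -1.77 (FDR = 0.00418). Of 12 integrins and linkers 5 were called below, and 0 without the 2 libraries. *scb* went from 2.31 at 96 h (FDR = 0.0229) to -2.86 at 120 h, an interaction of -5.11 (FDR = 0.00743). Its value at 96 h rested on library 3, without which it was -0.15 (FDR = 0.778), and the interaction without the 2 libraries had FDR = 0.0945. Of 13 JNK and immediate early genes 5 were called below, and 0 without the 2 libraries. Basement membrane genes went the other way with that choice. Of 9 tested 0 were called, and without the 2 libraries 3 were called below (median -0.62), where 3.24% of all genes were.

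**Figure D5:**
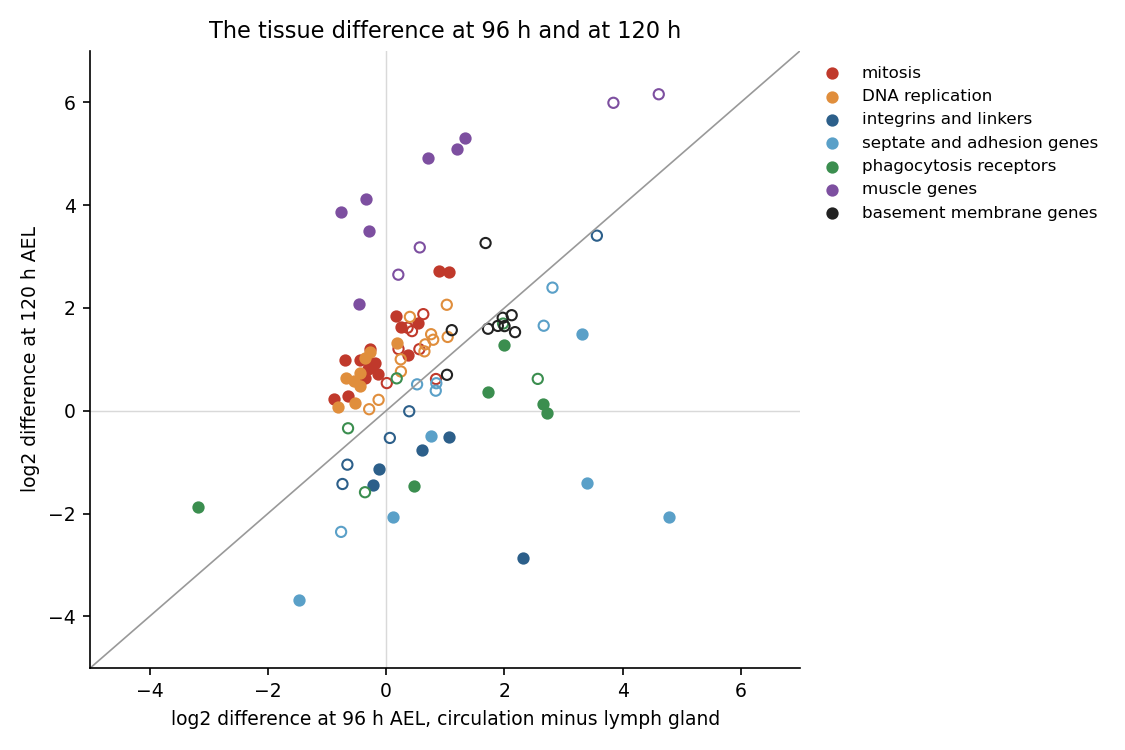
The log2 difference of circulation minus lymph gland at 96 h AEL (horizontal axis) and at 120 h AEL (vertical axis) for members of 7 gene lists; filled points were called in the interaction test and open points were not. On the grey line both ages have the same difference. Basement membrane genes lie near it (interaction called in 0 of 9), and many mitosis genes lie above it (called in 17 of 24). Septate and adhesion genes were called below it in 6 of 12. Without library 3 of both circulation ages, which is not drawn, these counts were 3 of 9 (below), 5 of 24 (above) and 3 of 12 (below).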

How the data were processed

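The authors deposited Drop-seq tables of UMI counts per gene and barcode, which hold whole numbers without normalization. The submitters' processing notes name STAR 2.5.3a, Picard and BDGP6, and no further settings were used here. Barcodes were filtered as described, counts were summed per library, and genes that passed filterByExpr were tested with edgeR 4.0.16 (TMM, quasi-likelihood, Benjamini-Hochberg FDR under 0.05) in R 4.3.3. Shares were compared by exact permutation tests with Python 3.11.15 and scipy 1.17.1 on cells thinned to 2000 UMIs (seed 11). Intervals and floors cover counting error only. Named genes were the 12 largest rises and the 12 largest falls, called, without overlap and at 20 CPM or more in the higher tissue, and members of the gene lists. The members and lists were chosen with earlier results of these data known. DESeq2 1.42.0, other scalings, filters and gates, and each library left out were alternatives. Leaving out shared barcodes and scaling to library totals were chosen after seeing the data. Scripts were tested on simulated data with 200 genes changed. The 120 h test recovered 39% of 2-fold and 79% of 4-fold changes, and the interaction test 12 and 66%. A gene not called may therefore still differ. Far fewer genes were changed there than were called here, so the scaling was not tested under that many changes.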

Additional observations from a re-analysis of the deposited data

Results flagged for a closer look

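In the lymph gland libraries of 120 h, 7 of the 151 genes named had a library far from the other 3 by Dixon's test, where chance gives about 1 in 20. Library 4 was the one that stood apart in 5 of the 7. It was the highest for *Hml* (1684 CPM) and *Nplp2* (4954 CPM) and the lowest for *CG43773* (18.7 CPM), *pll* (29.8 CPM) and *ImpL3* (0 CPM). Library 3 was the lowest for *Cap-G* (3.49 CPM) and library 1 for *E(spl)malpha-BFM* (3.17 CPM).

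The tissue difference changed with age for 48 of the 151 genes by edgeR's interaction test over 15 libraries (FDR under 0.05), with 15 above at 120 h and 33 below. Of all genes 17.2% were called, 7.48% above and 9.72% below. Without circulation library 3 of both ages 17 of the 48 were called and 31 were not, where 5.18% of all genes were called. The genes named were chosen with earlier results of these data known, so their share is no test of them as a group. The values that follow are log2 differences at 120 h minus those at 96 h. Among the 17, cell cycle genes were above, with *Cap-G* 1.75, *ncd* 1.53, *Cdk1* 1.16 and *geminin* 0.94, as were the myosin and neuropeptide-like genes, with *Mhc* 3.95 and *Nplp2* 3.11. Receptor and plasmatocyte genes were below, with *drpr* -2.47, *crq* -2.70, *eater* -1.32, *NimC1* -0.65 and *vir-1* -3.40. Secreted and adhesion genes were below too, with *Glt* -1.04, *Rfabg* -3.30, *Ten-m* -1.77 and *Spn55B* -1.91, and so were *Gal* -6.96 and *CG43773* -9.17.

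Among the 31 that were not called without the pair of libraries, the cell cycle genes stood at *asp* 1.90, *stg* 1.70, *aurA* 1.44 and *CycB* 1.23. Genes of immunity stood at *AttA* -3.50, *AttD* -4.91, *PGRP-SC2* -6.85, *Rel* -1.62, *Spn42Da* -0.70 and *Sr-CIII* 1.34, and those of JNK and cytokine signaling at *Jra* -1.58, *puc* -1.30, *Mmp1* -3.03, *upd2* -3.51 and *upd3* -1.73. Integrin, linker and cytoskeleton genes were at *scb* -5.11, *mys* -1.32, *Ilk* -0.96, *stck* -1.16, *Nrt* -2.14, *Act5C* -1.09 and *chic* -1.21. Metabolic and detoxification genes were at *Hex-A* 0.92, *GstO3* -1.66, *Cyp6w1* 3.42 and *Lip4* -4.50. The remaining genes were at *Ser* 1.92, *sls* 4.04, *Ance* -1.31, *CR45045* -4.02 and *e* -9.23.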

How the results depend on the processing

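Under every alternative run the count of called genes at 120 h stayed within 1.5 times the 3712 given, from 2739 without lymph gland library 3 to 4684 on library totals, with 3924 in DESeq2, 4532 of 15322 with no filter and 2925 after thinning the sums to the smallest library. Leaving out each library in turn gave 2739 to 4139 calls at 120 h, 2444 to 3445 in PM-marker cells and 3183 to 4036 at 96 h. It gave differences of 45.1 to 54.6 percentage points for PM-, -48.7 to -42.9 for PH- and 2.47 to 5.25 for CC-marker cells, and of -0.159 to -0.0473 for *Ubx*. Of the 151 genes named with a value, 131 were called at 120 h, 121 of them under all alternatives. The call in PM-marker cells moved from 3238 to 720 without cells holding a prohemocyte marker UMI and to 2126 with the *Hml* and *Tep4* rule. Both had fewer cells, fewer genes tested and a smaller share of the tested genes called. The change with age moved from 1490 to 469 genes without circulation library 3 of both ages. The *Ubx* share turned direction with cells not thinned (0.0294) and at 1000 UMIs (0.0587), *Pgk* in PM-marker cells on library totals (log2 0.035), and *scb* at 96 h without circulation library 3 (-0.15, with up to 2.76 without each other library). The cause was not tested. Library totals moved the share of calls that were higher from 51.6 to 80.3% in PM-marker cells and from 54.1 to 79.9% at 96 h, with median genes up by 0.40 and 0.33. The circulation totals, from 4109834 UMIs, limit the scarce genes.

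Deviations of same-numbered libraries of the tissues had correlations of -0.04, 0.07 and -0.15 at 120 h and -0.01, -0.39 and -0.44 at 96 h. Pairs with different numbers ranged from -0.33 to 0.47 over both ages. With so few libraries these values cannot show whether same-numbered libraries shared a preparation. With the replicate number as a block the calls were 3495 at 120 h, 2950 in PM-marker cells and 2131 at 96 h. Without the block they were 3712, 3238 and 3811.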
